A study of Caenorhabditis elegans with 7 samples.

Results

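The control strain of a SLAM-ITseq study of Caenorhabditis elegans was described across genes, in reads and in background T-to-C mismatches. The strain, BN1158, is the labelled control of the study, and its members are the 4 libraries titled as control replicates, out of 7 libraries in all. Its labels state no FLP recombinase, and the RNA came from whole L4 larvae, the last larval stage. After 28 h of growth at 20 °C the larvae were fed 4-thiouracil, for a total of 17 h, so the control animals were given the labelling agent too. Animals of a replicate were pooled, and nothing in the labels says whether replicates came from separate cultures or days, so the p-values rest on a spread between libraries that may be technical. The other 3 libraries are of strain BN1190, which carries dpy-7p::FLP in the hypodermis and was given 4-thiouracil in the same way. They entered no test and are used in a single description near the end.

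In SLAM-ITseq, a tissue that expresses uracil phosphoribosyltransferase turns fed 4-thiouracil into a nucleotide for new RNA, and treatment with iodoacetamide makes the reverse transcriptase read thiolated positions as C. A read with a T-to-C mismatch (T>C) is then taken as a read of labelled RNA. Mismatches seen in animals without the recombinase form the background against which label is read, whatever their source. At the L4 stage the hypodermis secretes cuticle collagens and the germ line starts to make sperm.

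Each library was read at mRNA 3′ ends, and the authors counted reads, reads with T>C, covered Ts and converted Ts for each 3′ UTR entry. Entries were joined to genes, and overlapping isoform entries were reduced to the most-read one, so a read counts once per gene. Control replicates 1 to 4 held 51977969, 5040638, 8538777 and 20058700 gene reads, which were 68.7%, 40%, 55.9% and 60.1% of their mapped reads. Reads with T>C made up 2.64%, 4.58%, 2.79% and 2.63% of gene reads (mean 3.16% ± 0.952, SD, n = 4), with 95% Wilson intervals, which cover counting error only, of 2.634 to 2.643%, 4.566 to 4.603%, 2.775 to 2.797% and 2.627 to 2.641%. Replicate 2 stood apart from the others on this measure, and the mean without it was 2.69% ± 0.0868 (n = 3). Of the Ts covered by reads, 0.139% ± 0.0559 were converted (n = 4), and 0.111% ± 0.00709 without replicate 2. Replicate 2 was also the shallowest library and had the smallest part of its mapped reads in genes. Values without it are given beside the results that rest on it.

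The control transcriptome was led by genes of the ribosome. Of the 15 genes with the highest counts per 1e+06 gene reads (CPM), 9 encode ribosomal proteins. The kit reads an end of each transcript, so CPM were not divided by length. The small-subunit genes rps-23 and rps-3 came first. For rps-23 the libraries gave 6826, 12319, 7693 and 8631 CPM (mean 8867 ± 2416), and for rps-3 6176, 11033, 9476 and 7080 CPM (8441 ± 2219). Replicate 2 was the highest library for both, while for rpl-41.2, a large-subunit gene, it was the lowest, at 10335, 4647, 7098 and 8565 CPM in replicates 1 to 4. These genes, ranked at the top, differed from each other by less than their SDs.

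Outside the ribosome, the most-read genes were eef-1A.1, the elongation factor that brings aminoacyl-tRNA to the ribosome, at 5994 ± 976 CPM, ant-1.1, an ADP/ATP carrier of the inner mitochondrial membrane, at 5399 ± 1014 CPM, asp-1, an aspartic protease of the gut, at 5366 ± 858 CPM, and act-4, an actin, at 5148 ± 1780 CPM. The entry of the microRNA gene cel-mir-354 stood among them at 5588 ± 2331 CPM, but it overlaps the 3′ UTR of rps-20 (5651 ± 2299 CPM) on the same strand of chromosome I, so the reads of these 2 entries cannot be told apart. K07C10.6, annotated as a non-coding RNA (chromosome II, 11167189 to 11167304, minus strand, WBcel235), reached the top 15 through replicate 2, with 651, 16656, 658 and 2312 CPM in replicates 1 to 4.

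**Figure D1:**
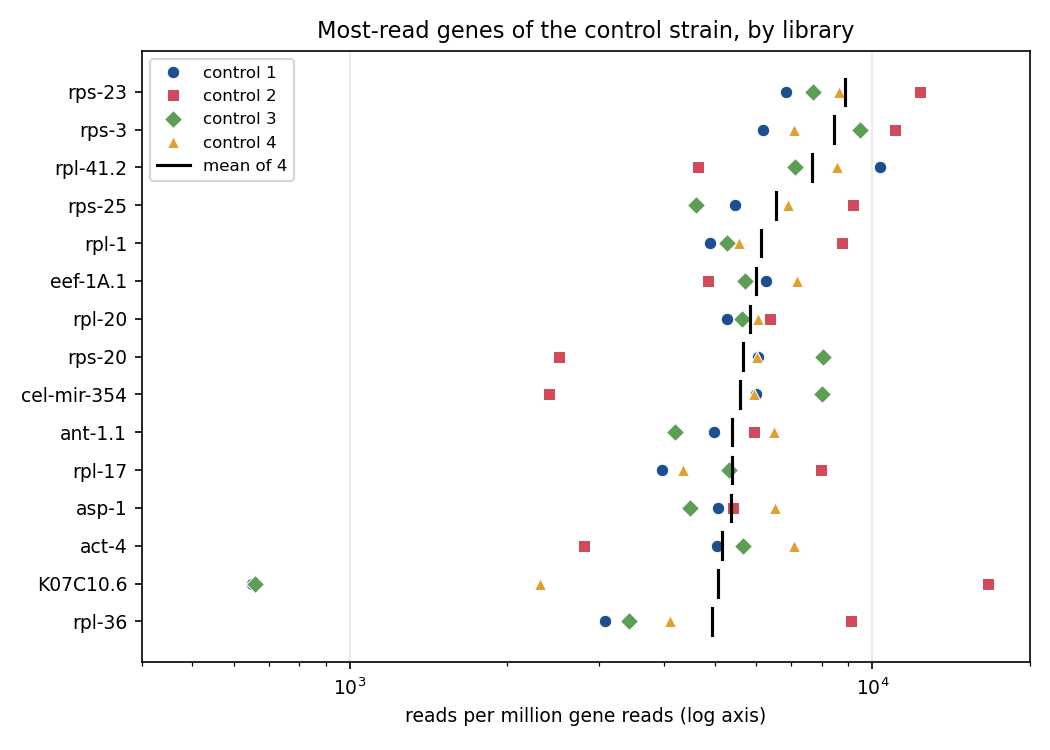
CPM (log axis) of the 15 most-read genes in each of the 4 control libraries, with a black bar at the mean. Of these genes K07C10.6 has the widest spread, between 651 and 16656 CPM, and is highest in replicate 2.

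The 100 most-read genes took 31.0%, 44.5%, 33.2% and 33.8% of gene reads in replicates 1 to 4 (35.6% ± 6.06), and it took 284, 131, 244 and 243 genes to reach 50% of the reads. Reads were thus most concentrated in replicate 2. Of the gene reads, 98.1% ± 0.776 fell in protein-coding genes and 0.879% ± 0.290 in genes of the mitochondrial genome. The X chromosome held 9.72% ± 0.628 of reads and chromosome I 21.6% ± 0.449.

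Summed over gene lists, ribosomal proteins took 20.6%, 33.6%, 21% and 22.8% of reads (24.5% ± 6.15), and replicate 2 was again the highest. Cuticle collagens, the structural proteins that the hypodermis secretes, took 7.95%, 7.47%, 7.57% and 6.92% (7.48% ± 0.426), with little spread between libraries. Body wall muscle genes took 3.49% ± 0.660, nuclear genes of the respiratory chain and ATP synthase 2.35% ± 0.216, and intestine genes 2.14% ± 0.105. Markers of other cells were present at lower sums, with 0.683% ± 0.160 for germline genes, 0.397% ± 0.0979 for sperm genes outside the msp family, 0.323% ± 0.114 for major sperm proteins, 0.312% ± 0.0488 for neuropeptide and synapse genes, and 0.181% ± 0.0134 for pharynx genes. Fewer cells of a type and less RNA per cell cannot be told apart in whole animals.

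Among single markers, the paramyosin gene unc-15 of body wall muscle had 2549, 1247, 2547 and 2417 CPM, and the hypodermal collagen rol-6 had 200, 249, 164 and 303 CPM. The gut genes ges-1, an esterase, and elt-2, a GATA factor, were low at 28.7 ± 10.4 and 12.9 ± 5.70 CPM. Genes that mark the adult stage were read as well. The adult collagen col-19 had 619, 1020, 485 and 408 CPM, and the yolk genes vit-6 and vit-2 had 1181 ± 307 and 409 ± 105 CPM. Replicate 2 was the highest of the 4 libraries for col-19, for vit-6 and for vit-2. The part of adult animals in the pools was not tested.

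Most genes were ranked alike in the 4 libraries. Spearman correlations of log2 CPM across the 12067 tested genes, those with 20 or more reads on average, were 0.828 to 0.912 between pairs of libraries, as a description across genes, which are not independent replicates. Among genes with a mean of 100 CPM or more, the snoRNA gene C07H6.10 spread most, with 19.5, 1173, 7.14 and 132 CPM in replicates 1 to 4. Like K07C10.6, it was highest in replicate 2. The next genes in spread went the other way. For smd-1, an S-adenosylmethionine decarboxylase, the libraries gave 161, 16.9, 604 and 36.0 CPM. For cct-7, a subunit of the cytosolic chaperonin, they gave 443, 11.1, 140 and 87.7 CPM. The values of tfg-1, which acts at exit sites of the endoplasmic reticulum, were 700, 35.9, 995 and 323 CPM, and those of gsk-3, a glycogen synthase kinase, 339, 44.0, 1074 and 319 CPM. All 4 were lowest in replicate 2.

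Background T>C differed between genes. The T>C share of a gene, its reads with T>C as a percentage of its reads, was set against the pooled share of the same library by edgeR's quasi-likelihood F-test, two-sided, with a term per library and Benjamini-Hochberg adjustment over the 12067 genes at a threshold of 0.05. The fit gives a log2 odds ratio of the gene against its libraries. It borrows spread between genes, so its SEs and p-values can follow the gene's own spread only little. For example, the T>C share had an SD of 0.0721 in rps-21 and of 6.44 in hsp-1, with SEs of 0.159 and 0.166. A very small p-value is thus no measure of how well the libraries match in a gene. With this test 86 genes (0.713% of those tested) lay above the library background and 156 (1.29%) below. At unadjusted p under 0.05 there were 247 above and 2826 below. The called genes were well read, with a median of 22748 mean reads for those above and 11079 for those below, and each had a mean of 200 or more. Calls depended on depth, with 23.3% above and 29.6% below among the 206 genes averaging at least 20000 reads, 5.66% and 7.63% among the 459 with 5000 to 20000, 0.393% and 1.92% among the 2289 with 1000 to 5000, and 0.0329% and 0.176% among the 9113 with fewer. A list's count is therefore set beside the share called among all tested genes and among those of like depth, which include the list's own members. Of the 86 genes above, 82 had a higher share than the library in all 4 libraries, and of the 156 below, 153 had a lower share in all 4.

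The split between the 2 sides depends on the level that a library is centred on. The pooled share is carried by the most-read genes, and the median log2 odds ratio was -1.39 over all tested genes and -0.574 over the 2954 genes averaging at least 1000 reads. Centred on the median gene of each library instead, estimates moved up by a median of 0.773, and 117 genes lay above and 6 below. Of the 86 genes above, 84 were called above in that fit too, and the 6 below were all among the 156. The SE of rps-3, for example, rose from 0.104 to 0.340 in that fit, so its counts do not reflect the level alone. A quasi-binomial model fitted gene by gene, with no spread borrowed between genes, called 0 above and 1 below, with 831 above and 1639 below at unadjusted p under 0.05. Without control replicates 1, 2, 3 and 4 in turn, 71, 78, 97 and 51 genes lay above and 100, 77, 196 and 62 below. The file headers of replicates 2, 3 and 4 each name a flow cell and that of replicate 1 names none. The counts without replicate 1, 71 above and 100 below, are thus also those of the libraries with a flow cell in the header. Whether these libraries share a flow cell was not examined.

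**Figure D2:**
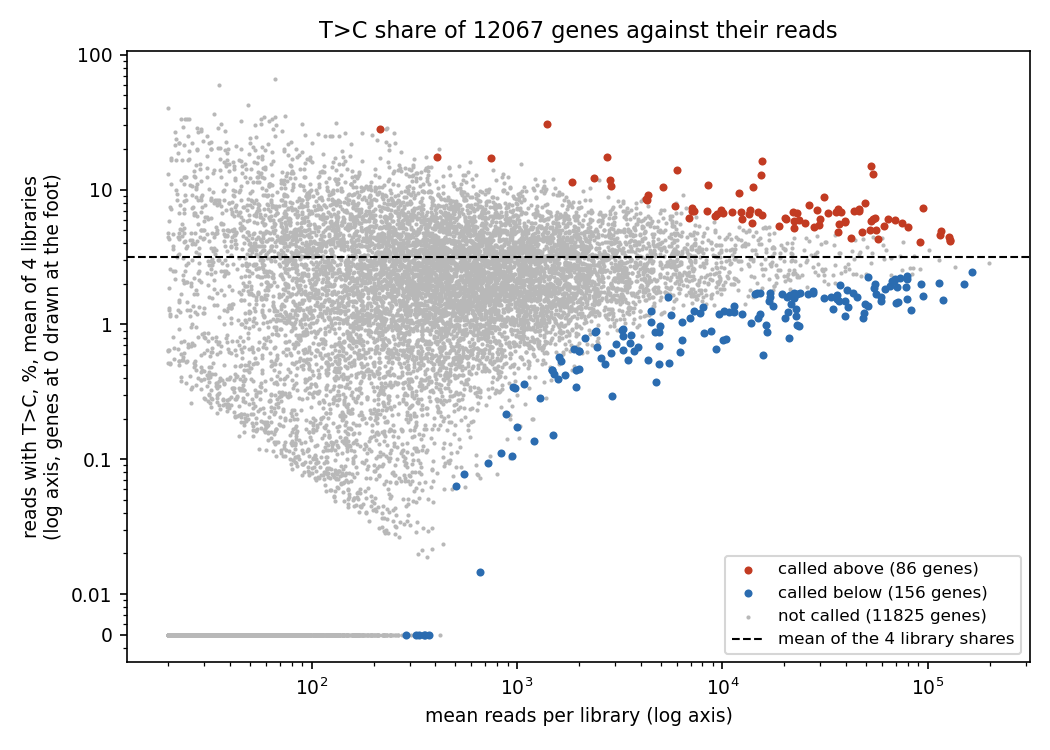
Mean T>C share over the 4 control libraries (log axis, genes at 0 drawn at the foot) against mean reads per library (log axis) for 12067 genes, coloured by call. The 86 genes above and 156 below are among the well-read genes at the right, and the dashed line marks the mean library share of 3.16%.

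The genes furthest above the background included 3 of the mitochondrial genome. CYTB, cytochrome b of respiratory complex III, carried T>C in 14.4%, 42.9%, 33.5% and 32.7% of its reads in replicates 1 to 4, against library shares of 2.64%, 4.58%, 2.79% and 2.63% (log2 odds ratio 3.73 with SE 0.451, adjusted p = 1.10e-13 by edgeR). ATP6, a subunit of the mitochondrial ATP synthase, had 8.39%, 27.2%, 12.7% and 7.17%. ND3, a subunit of complex I, had 10.2%, 21.8%, 10.7% and 8.73%. In each of these genes all 4 libraries lay above their own pooled share, with replicate 2 the highest, and each call was kept when any 1 control library was left out.

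Of the 11 mitochondrially encoded genes with an entry, 7 lay above and 1 below, beside 0.713% and 1.29% of all genes. Of the 8 averaging at least 1000 reads, 87.5% lay above and 12.5% below, beside 2.81% and 4.74% of all genes of that depth. COX1, the catalytic subunit of cytochrome c oxidase, was the most read of them at 2764 ± 915 CPM. Its T>C share was 6.39%, 26.8%, 10.4% and 8.54% (log2 odds ratio 2.01, SE 0.109, adjusted p = 1.28e-71), and no gene with 1000 or more reads in every control had a wider range over the libraries. COX3, ND4L and COX2 lay above with mean shares of 6.99%, 7.06% and 6.97%, and the call of COX2 was lost without replicate 2 and without replicate 4. ND6, a further subunit of complex I, had 8.63%, 37.5%, 0% and 6.58% over 1304 reads in all and was not called. Summed, the mitochondrial genes carried T>C in 5.97%, 18.2%, 7.34% and 6.23% of reads (9.45% ± 5.90, and 6.51% ± 0.728 without replicate 2), above the library share in all 4 libraries.

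ND4 was the exception. Its entry spans 76 bases (MtDNA, 7733 to 7808, plus strand, WBcel235), while the other 10 mitochondrial entries are 1 to 9 bases long. ND4 carried T>C in 1.23%, 1.90%, 0.345% and 1.45% of reads, below the library share in each library (log2 odds ratio -1.53, SE 0.298, adjusted p = 4.28e-05). The 14 nuclear genes with entries of 1 to 10 bases and a mean of 200 or more reads had a summed T>C share of 1.05% ± 0.224. Of these 14, 0 lay above and 1 below, beside 1.13% and 2.05% of all genes with that mean. In so few genes a count of 0 above is near the share over all genes. The part of entry length in the mitochondrial values was not tested.

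**Figure D3:**
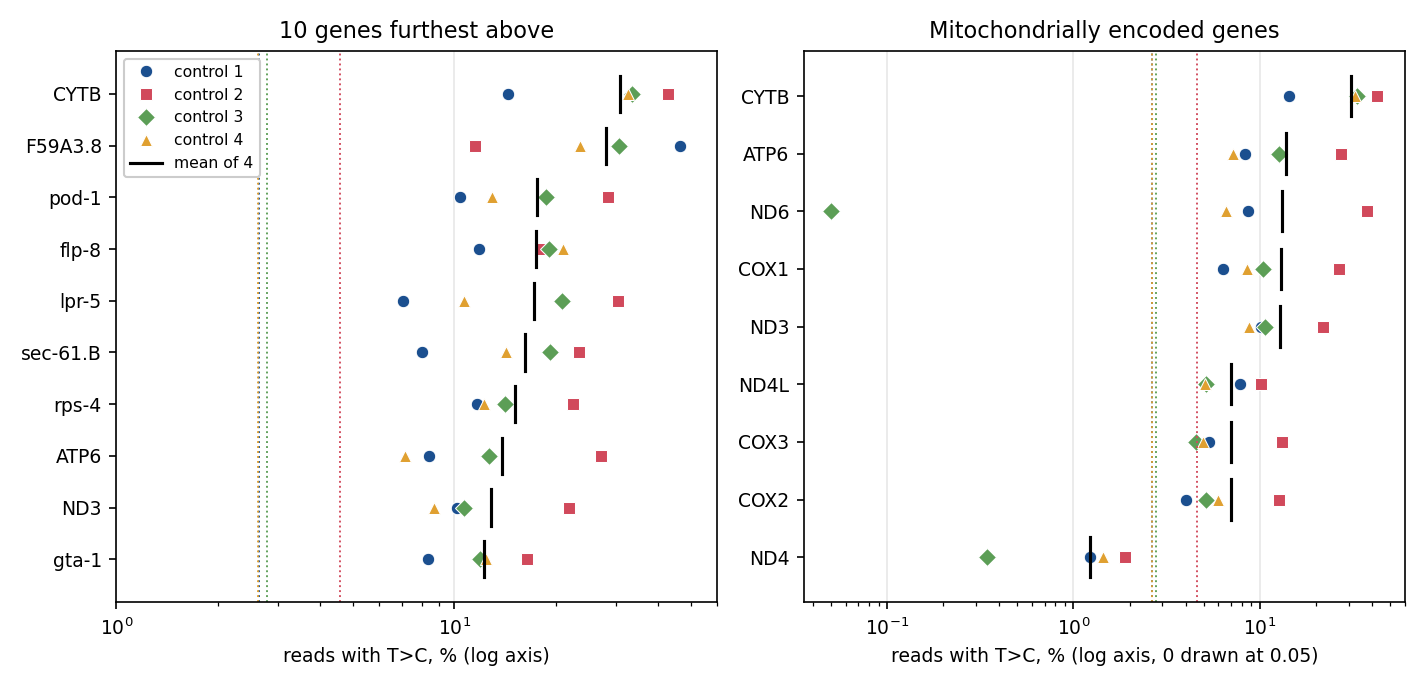
T>C share in each control library (log axis) for the 10 genes furthest above the background, left, and for the 9 mitochondrially encoded genes with reads in all 4 libraries, right. Black bars mark means and dotted lines the pooled share of each library in its colour. CYTB has the highest mean in both panels, at 30.9%, and ND4 is the mitochondrial gene whose 4 values lie left of their library lines.

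Among nuclear genes, rps-4 is a small-subunit ribosomal gene (chromosome IV, 7083694 to 7083734, minus strand). Of the genes furthest above it had the smallest SE relative to its estimate, an SE that borrows spread between genes. It carried T>C in 11.7%, 22.5%, 14.1% and 12.2% of 211607 reads, against 2.64%, 4.58%, 2.79% and 2.63% of all gene reads (log2 odds ratio 2.44, SE 0.101, adjusted p = 4.78e-124). The gene sec-61.B, a subunit of the channel that passes proteins into the endoplasmic reticulum, had 8.05%, 23.4%, 19.2% and 14.2%. For pod-1, a coronin-like actin-binding protein, the shares were 10.4%, 28.5%, 18.7% and 12.9%. These 3 genes lay above in all 4 libraries and kept their call when any 1 library was left out.

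The calls of 4 further genes in this group were lost without some libraries, though all 4 shares of each lay above the library share. With 1 library left out, log2 odds ratios were 2.25 to 2.84 for lpr-5 and 2.52 to 2.88 for flp-8. They were 2.0 to 2.22 for gta-1 and 3.01 to 4.16 for F59A3.8. The lipocalin-related gene lpr-5 had 7.03%, 30.5%, 20.8% and 10.7% and lost its call without replicate 2 and without replicate 4. The neuropeptide gene flp-8 had 11.8%, 17.9%, 19.1% and 21% and lost it without replicate 1, 2 or 4, as did gta-1, a GABA transaminase, with 8.35%, 16.4%, 11.9% and 12.4%. F59A3.8, whose role is not given in the files, had 46.4%, 11.5%, 30.8% and 23.6% of 865 reads and lost it without replicate 1 and without replicate 4.

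Reads with T>C and converted Ts did not always point the same way. The first counts a read with a mismatch anywhere, and the second counts Ts inside the entry. Over whole libraries there were 0.871 to 0.888 converted Ts per read with T>C, and the median over the 86 genes above was 0.949, but 11 of them (12.8%) were under 0.5, beside 11.8% of the 7374 tested genes with 10 or more T>C reads. For F59A3.8 the ratio was 0.00311, and its converted Ts were 0.00359% ± 0.00719 of covered Ts. The ratio was 0.243 for hsp-1, a cytosolic Hsp70, 0.253 for ndk-1, a nucleoside diphosphate kinase, and 0.290 for flp-8. With converted Ts over covered Ts in place of reads, 74 of the 86 genes stayed above 1 in odds and 60 were called above. The log2 odds ratios of F59A3.8, hsp-1, ndk-1, flp-8 and asp-1 changed sign, to -4.22, -0.934, -0.897, -0.127 and -0.185. For rps-4 and COX1, at 0.996 and 0.926 converted Ts per read with T>C, both measures were high.

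Body wall muscle genes lay high as a group. Of 48 tested, 14 (29.2%) lay above and 0 below, beside 0.713% and 1.29% of all tested genes. Of the 15 that average at least 20000 reads, 12 lay above, beside 23.3% of all genes of that depth. The median log2 odds ratio was 0.63 over the 36 members averaging at least 1000 reads (all genes of that depth -0.574). Centred on the median gene, 14 lay above and 0 below. That centring moved estimates up by a median of 0.773 over all tested genes, so it is no check on a list that lies high. Reads of the list carried T>C in 4.88%, 5.69%, 5.05% and 4.49% (5.03% ± 0.500), above the library share in all 4 libraries. The body wall myosin gene unc-54 had 6.05%, 6.56%, 5.68% and 6.10% (log2 odds ratio 1.04, SE 0.116, adjusted p = 4.41e-16), although its reads ran from 862 CPM in replicate 2 to 8749 CPM in replicate 3. Its T>C share varied little beside that. The light chain gene mlc-3 had 7.61%, 5.94%, 7.45% and 5.70%, and act-4 had 4.80%, 5.82%, 4.88% and 4.38%. The margin over the library share was smallest in replicate 2 for both. The calls of unc-54, mlc-3 and act-4 were kept without each library in turn, while that of act-1 was lost without replicate 1, 3 or 4. The actin genes act-1, act-2, act-3 and act-4 encode near-identical proteins, but their 3′ UTR entries differ in length, at 194, 163, 322 and 429 bases. The deposited multimapping count is 0 in every entry, so it does not show where any reads that fit several of them went.

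**Figure D4:**
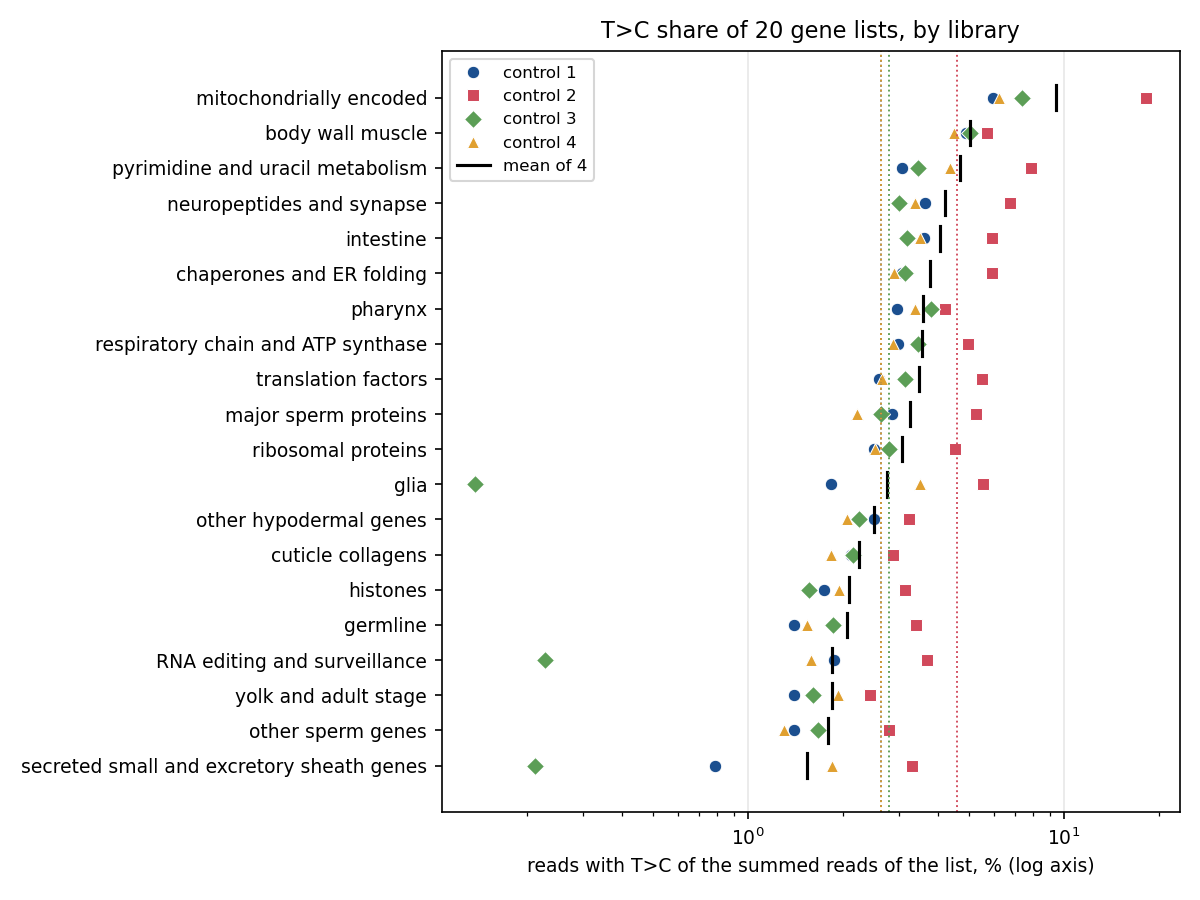
T>C share of the summed reads of 20 gene lists in each control library (log axis), ordered by mean, with dotted lines at the pooled share of each library in its colour. Mitochondrially encoded genes and body wall muscle are the lists at the top, with means of 9.45% and 5.03%, and replicate 2 is the highest library in each list.

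Intestine genes had 6 members above (10.7%) and 2 below (3.57%) of 56, beside 0.713% and 1.29% of all tested genes. Among the 41 averaging at least 1000 reads the 2 below made up 4.88%, close to the 4.74% of all genes of that depth, and the 6 above 14.6%, beside 2.81%. The list had a summed share of 4.04% ± 1.25 (3.43% ± 0.219 without replicate 2). Those above were asp-1, asp-5, asp-6 and asp-14, aspartic proteases, spp-3, a saposin-like gene, and lys-1, a lysozyme. The share of asp-1 was 4.36%, 7.28%, 3.03% and 3.83%, and that of lys-1 4.50%, 14.3%, 8.97% and 5.63%. Those below were acdh-1, an acyl-CoA dehydrogenase, with 1.63%, 2.23%, 1.21% and 1.66%, and spp-8, a saposin-like gene, with 0.152%, 0.316%, 0% and 0.667%. The call of asp-1 was lost without replicate 1, that of acdh-1 without replicate 4, that of lys-1 without replicate 2 or 4, and that of spp-8 without replicate 1, 2 or 4.

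Ribosomal protein genes fell on both sides, with 16 above (19.3%) and 30 below (36.1%) of 83, and all 83 passed the filter on reads. These shares exceed the 0.713% and 1.29% of all tested genes, but 75 of the 83 average at least 20000 reads. Of these 75, 20% lay above and 38.7% below, beside 23.3% and 29.6% of the 206 genes of that depth. The 75 are part of the 206, which draws the shares together. The share above was thus near that of well-read genes, and the share below was higher. Their summed share, 3.08% ± 0.966, was close to the library mean of 3.16%, and their median log2 odds ratio of -0.40 turned to 0.45 (15 above, 0 below) when libraries were centred on the median gene. The 16 above had mean shares between 4.20% and 15.1%, with rps-4, rpl-29 at 10.5% ± 6.48 and rpl-3 at 8.89% ± 5.17 at the top. The 30 below had mean shares between 1.27% and 2.46%. The small-subunit gene rps-14 had 1.30%, 1.43%, 1.03% and 1.33% of reads with T>C (log2 odds ratio -1.31, SE 0.143, adjusted p = 9.87e-17), and rpl-36 had 1.60%, 1.63%, 1.43% and 1.49%. Replicate 2 was close to the others in both genes, though its library share was the highest. Within the most-read 15 genes, 6 lay above, 6 below and 3 were not called. The 6 above include rps-20 and cel-mir-354, whose reads cannot be told apart. With converted Ts, the log2 odds ratios of cel-mir-354 and asp-1 among the 6 above, and of rps-3 among the 6 below, changed sign. When each library was left out in turn, only act-4 of the 6 above kept its call throughout, and of the 6 below only rps-23 lost it. Of those below, rps-23, rps-3 and rpl-1 had log2 odds ratios of -0.397, -0.665 and -0.652, which turned to 0.448, 0.177 and 0.184 when libraries were centred on the median gene.

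Cuticle collagens had 3 members above (2.54%) and 28 below (23.7%) of 118 tested, beside 0.713% and 1.29% of all tested genes. By depth, 16 of 31 averaging at least 20000 reads lay below (51.6%, beside 29.6% of all such genes), and 10 of 31 with 5000 to 20000 reads (32.3%, beside 7.63%). Their summed share was 2.11%, 2.87%, 2.15% and 1.83% (2.24% ± 0.443), under the library share in all 4 libraries. Their median log2 odds ratio of -0.82 came to 0.02 when libraries were centred on the median gene, with 4 above and 0 below. SEs were also larger in that fit, as for col-71 (0.389, beside 0.158), so the lost calls do not reflect the level alone. Among genes averaging at least 20000 reads the median in the main fit was -0.697 for collagens and -0.269 for all genes. The 3 above were col-17, col-39 and col-73, with mean shares of 7.09% ± 4.54, 7.0% ± 3.82 and 6.20% ± 4.76. In each of them replicate 2 was the highest library, at 13.6%, 12.6% and 13.3%, and the call of col-39 was lost without it. The 28 below had mean shares between 0.794% and 1.99%. At the low end, col-129 had 0.679%, 1.24%, 0.329% and 0.929% of reads with T>C (log2 odds ratio -2.12, SE 0.251, adjusted p = 2.72e-14), and the call was kept without each library in turn. The most-read collagens, col-12 and ram-2, had 2.33% ± 0.525 and 2.35% ± 0.271 and were not called.

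**Figure D5:**
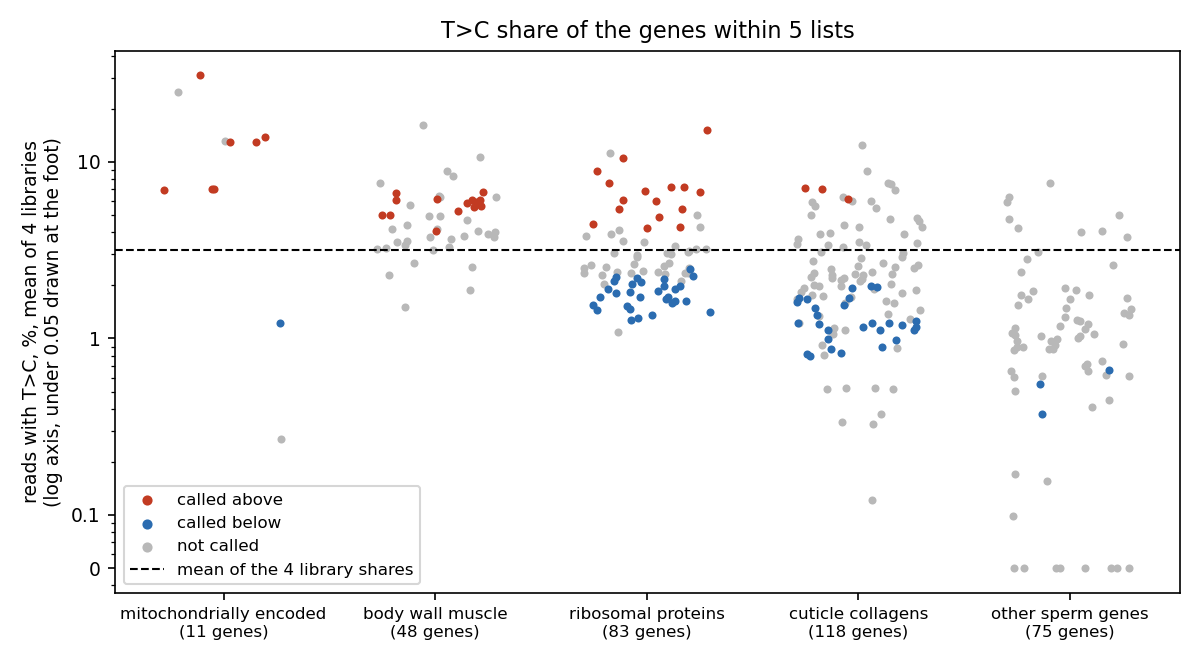
Mean T>C share over the 4 control libraries (log axis, under 0.05% drawn at the foot) of each tested gene in 5 lists, coloured by call, with the mean library share dashed. Ribosomal protein genes lie on both sides of the line, 16 above and 30 below, while 14 body wall muscle genes are called above and 0 below.

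Lists of the germ line, sperm and chromatin had a few calls, on the lower side. With 0.713% of all tested genes above, a count of 0 above in lists of this size is near the share over all genes. Of 56 germline genes 3 (5.36%) lay below, beside 1.29% of all tested genes. Among the 36 averaging at least 1000 reads the 3 made up 8.33%, beside 4.74% of all genes of that depth. They were gld-2, a cytoplasmic poly(A) polymerase, pos-1, an RNA-binding protein of the embryo, and cbd-1, an eggshell protein. Their mean shares were 0.973%, 1.60% and 1.03%. Of 25 major sperm protein genes, 4 (16%) lay below, msp-55, msp-59, msp-64 and msp-76, with mean shares of 0.471%, 0.764%, 0.726% and 0.920%. Among the 19 averaging at least 1000 reads the 4 made up 21.1%, beside 4.74% of all genes of that depth. Other members lay higher without a call, such as msp-56 at 7.91%, msp-33 at 6.39% and msp-152 at 6.08%. In all, 9 of the 25 estimates were above 0, and the summed share of 3.25% ± 1.37 was close to the library mean of 3.16%. These genes encode near-identical proteins, and the likeness of their 3′ UTR entries was not examined. The deposited count of multimapping reads is 0 in every entry, so any reads that fit several of them may have been placed in 1 or left out. Of 75 other sperm genes, 3 (4%) lay below, ssp-10, msd-4 and nspd-1, and the list's median log2 odds ratio was -2.32. The 3 made up 12% of the 25 averaging at least 1000 reads, beside 4.74%. Of 28 histone genes, 3 (10.7%) lay below, the H3.3 genes his-72 and his-74 and the linker histone gene hil-4, with mean shares of 1.21%, 1.05% and 1.11%. The 3 made up 25% of the 12 averaging at least 1000 reads, beside 4.74%. Centred on the median gene, none of these 13 calls was kept, and 2 major sperm protein genes were called above. Each was also lost without at least 1 control library, except those of msp-59 and nspd-1.

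The remaining lists had few calls. They stand beside 0.713% above and 1.29% below among all tested genes, and 2.81% and 4.74% among those averaging at least 1000 reads. At that depth, 5% of neuropeptide and synapse genes and of translation factors lay above. So did 5.41% of nuclear respiratory genes, 7.41% of chaperones and 6.67% of pyrimidine genes. Below lay 3.70% of chaperones, 6.67% of pyrimidine, 5.88% of other hypodermal and 22.2% of yolk and adult-stage genes. Among neuropeptide and synapse genes 2 of 74 lay above, flp-8 and sbt-1, a chaperone of a neuropeptide-processing enzyme, the second with 6.83%, 17.8%, 9.36% and 8.92%. Among nuclear respiratory genes 2 of 39 lay above, cox-6B and cox-6C, with mean shares of 5.63% and 5.37%. Among chaperones 2 of 35 lay above, hsp-1 with 3.57%, 16.5%, 2.76% and 5.12% and the mitochondrial chaperonin gene hsp-60 with 10.8%, 7.17%, 16% and 7.66%. In hsp-1 replicate 3 did not exceed its library share, and the log2 odds ratio of hsp-60 was -0.41 with converted Ts. The small heat shock gene sip-1 lay below, with 0.691%, 0.763%, 0.360% and 0.566%. Of 20 translation factor genes 1 lay above, tct-1, at 5.86% ± 1.68. Of 19 genes of pyrimidine and uracil metabolism, through which 4-thiouracil and uracil pass, ndk-1 lay above at 5.76% ± 2.08 and dut-1, the dUTPase gene, below with 0.114%, 0%, 0% and 0.434%. Of 34 other hypodermal genes osm-11, a secreted Notch co-ligand, lay below with 1.28%, 1.46%, 1.35% and 1.41%, and of 10 yolk and adult-stage genes vit-6 and col-19 lay below with 1.30% ± 0.248 and 1.20% ± 0.297. Pharynx (24 genes), glia (8), excretory and sheath (15) and RNA editing and surveillance genes (12) had no call on either side. In lists of this size that is near the shares over all genes. The calls of sbt-1 and osm-11 were lost without replicate 4, that of col-19 without replicate 2, that of cox-6C without replicate 3 or 4, and that of dut-1 without replicate 1, 2 or 4.

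In the 32 genes above and 78 below that belong to no list, the fatty acid and retinol binding genes far-2 and far-1 lay above with mean shares of 7.36% and 6.02%. The sperm chromatin genes spch-3 and spch-1 lay below with 0.624% and 0.513%, as did rfc-1, a clamp loader subunit of DNA replication, with 0.654%.

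No read with T>C was found in any control library for 1306 of the 12067 tested genes (10.8%). Most of them were little read, and 42 had a mean of 200 or more reads. The gene with the most reads and no T>C was C34F6.10, with 0 of 1690 reads, which allows a share of up to 0.178% and is at least 15.1-fold lower than the 45.4 T>C reads that the library shares would give over the group. These limits, and the intervals of the next genes, take reads as independent and cover counting error only, while the variance between libraries was 7.98 times binomial in the median gene of 200 to 500 reads. W03D8.2 had 0 of 1486 reads, rib-2, an exostosin-family enzyme of heparan sulfate synthesis, 0 of 1425, Y94H6A.16 0 of 1417, Y55D9A.2 0 of 1412 and taf-6.1, a TFIID subunit gene, 0 of 1341. For these 5 genes the count of 0 allows shares of up to 0.202%, 0.211%, 0.212%, 0.212% and 0.224%. Of the genes without T>C, 6 were called below, W03D8.2, rib-2, Y55D9A.2, T05C12.1, the T-box gene tbx-34 and C49F5.7, and each of these 6 calls was lost whichever library was left out.

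The next genes on the lower side had 1 or 2 reads with T>C. C32E8.4 had 1 of 2651 reads, 0.0130 of the number at the library shares (95% Poisson interval 0.000328 to 0.0722, for counting error only). H01G02.1 had 2 of 2896 reads, a ratio of 0.0239 (0.00289 to 0.0862). C36H8.1 and Y38H8A.4 had 1 each, of 2022 and 2212 reads. The calls of all these genes, too, were lost without replicate 2 and without replicate 4. Those of C32E8.4 and C36H8.1 were also lost without replicate 1, and that of Y38H8A.4 whichever library was left out.

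The libraries varied by more than counting error. The variance of a gene's T>C counts over the 4 libraries was 8.50 times that of a binomial in the median of the 1780 genes with a mean of 500 to 1000 reads and 10 or more T>C reads, and 33.7 times in the median of the 206 genes with 20000 or more reads. Replicate 3 had no T>C read in 59.8% of tested genes, beside 25.1%, 37.0% and 28.3% in replicates 1, 2 and 4. The median gene averaging at least 200 reads had a share of 1.41%, 2.99%, 0.342% and 2.0% in replicates 1 to 4. Across the 665 genes averaging at least 5000 reads the Spearman correlation of T>C share between libraries was 0.498 to 0.742, as a description across genes.

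Genes with 1000 or more reads in every control showed how far a single library can move the share. For vha-17, a subunit of the vacuolar ATPase, the shares were 2.28%, 19.3%, 3.89% and 3.98%, and the gene was not called. For rpl-29 they were 5.56%, 20.0%, 8.95% and 7.44%, and for K08D12.3 4.92%, 19.2%, 6.96% and 6.54%. Replicate 2 was the highest in all 3, by more than the spread among the others. Without it rpl-29 and K08D12.3 kept their calls.

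Features of the entries that the calls did not use are given as a description, with no test. The median entry length was 120 bases in genes above, 95 in genes below and 143 in all tested genes, and the median T content was 40.2%, 36.5% and 41.6%. In genes averaging at least 200 reads, summed T>C shares were 8.61% ± 4.76 in the 22 genes with entries of 1 to 10 bases (1.05% ± 0.224 in the 14 nuclear ones), 1.87% ± 0.709 in the 31 with 11 to 20 bases, 2.74% ± 1.02 in the 238 genes with entries of 21 to 40 bases and 3.07% ± 0.699 in the 598 with 501 to 1000 bases. X-linked genes had 3.27% ± 0.554 and autosomal genes 3.09% ± 0.907. The 6 snoRNA genes had 1.09%, 0.885%, 1.01% and 0.921% (0.976% ± 0.0918) and the 39 pseudogenes 1.85% ± 0.0237, beside 3.18% ± 0.964 in the 7531 protein-coding genes. In these 2 classes replicate 2 was not above the others by the margin seen in protein-coding genes.

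The 3 hypodermal libraries, which entered no fit, held 3.35%, 3.57% and 3.76% reads with T>C. Of the 86 genes above in the controls, 84 (97.7%) exceeded the pooled share in all 3 hypodermal libraries, beside 12.8% of the 7614 genes that average at least 200 control reads and have reads in each of these libraries. Of the 156 genes below, 150 (96.2%) were under it in all 3, beside 37.5%. The called genes were better read than most of the 7614, with medians of 22748 mean control reads above and 11079 below. No share was taken among genes of like depth, so 12.8% and 37.5% do not allow for depth. CYTB had 14.5%, 25.9% and 32.8%, rps-4 14.3%, 14% and 17.2%, and unc-54 7.43%, 6.75% and 6.64% in hypodermal replicates 1 to 3. On the lower side, rpl-36 had 1.87%, 2.27% and 1.71%. Of the genes without T>C in the controls, C34F6.10 had 0.781%, 0% and 10.7%, and W03D8.2 had 0.122%, 0.587% and 0.239%.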

How the data were processed

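The 4 control libraries, grouped by their titles, were analysed, and the 3 hypodermal libraries served for a description. Per the file headers, the authors made the deposited counts with slamdunk 0.4.3 on 3′ UTR entries of WBcel235, and the submitters' processing notes also name ce10 and DESeq2 without a role. The deposited fraction is converted over covered Ts. The deposited score, a CPM over mapped reads, gave the mapped reads only. The sources used here do not give trimming or the mismatch threshold, and 21 per-library columns of the table for the whole series were not used.

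Of 47039 entries, 42202 were joined to genes by transcript name and 4816 by sequence name, giving 27909 genes, and the 21 others held 0.00445% of control reads. Genes averaging at least 20 reads were tested in edgeR 4.0.16 (R 4.3.3) on reads with and without T>C, with a term per library and its log pooled T>C odds as offset. Standard errors are the estimate over the root of F. The estimates were checked on simulated data with known odds ratios. The spread drawn was smaller than the real one in well-read genes. That was 16.0 times binomial in the median gene of 5000 to 20000 reads and 33.7 times at 20000 or more. Error rates at these depths were thus not checked. limma 3.58.1, DESeq2 1.42.0, a quasi-binomial model, other centring, filters and left-out libraries were alternatives. Python 3.11.15, pandas 2.3.3, NumPy 2.4.6, SciPy 1.17.1 and matplotlib 3.10.9 were also used.

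Named genes are the 15 most read, the 10 furthest above and below averaging at least 200 reads and all 4 libraries on that side, the 6 most-read without T>C, the 6 with the widest spread in reads, the 5 with the widest T>C range and the 3 most read of each list. Further called genes in lists, the mitochondrial genes, far-1, far-2, spch-1, spch-3 and rfc-1 were named after their values were seen. The genes described and the 20 lists were chosen with earlier results of these data known.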

Additional observations from a re-analysis of the deposited data

Results flagged for a closer look

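Of 96 measures compared over the 4 control libraries, 18 had 1 library further from the others than the 95% critical value of Dixon's test for 4 samples allows, where chance gives about 1 in 20 for independent measures. These are not independent, since list and gene shares overlap, and vha-17, K08D12.3, K07C10.6 and C07H6.10 were named for a wide range or spread, so the chance rate cannot be read against the count. The library was replicate 2, on the high side, in all 18. Its gene reads with T>C were 4.58% (2.63 to 2.79% in the other 3 libraries), and its converted Ts 0.222% (0.105 to 0.119%).

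Summed T>C shares in replicate 2 were 4.51% for ribosomal proteins (2.50 to 2.79% in the others), 5.90% for intestine genes (3.18 to 3.60%), 6.74% for neuropeptide and synapse genes (3.00 to 3.63%), 5.91% for chaperones (2.90 to 3.15%) and 18.2% for mitochondrially encoded genes (5.97 to 7.34%). Ribosomal protein genes took 33.6% of its reads (20.6 to 22.8%).

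Among single genes, T>C shares in replicate 2 were 3.82% for rps-23 (1.89 to 2.17%), 2.66% for rps-3 (1.74 to 1.81%), 7.65% for rps-25 (3.01 to 3.79%), 4.81% for eef-1A.1 (1.88 to 2.02%), 21.8% for ND3 (8.73 to 10.7%), 13.1% for COX3 (4.57 to 5.32%), 19.3% for vha-17 (2.28 to 3.98%) and 19.2% for K08D12.3 (4.92 to 6.96%). K07C10.6 had 16656 CPM (651 to 2312) and C07H6.10 1173 CPM (7.14 to 132).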

How the results depend on the processing

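The 86 genes above became 117 centred on the median gene, 100 in DESeq2, 88 in limma, 0 in the quasi-binomial model and 82 with converted Ts, and 51 to 97 with 1 library left out. Of the 86, 84 were shared with median centring, 29 with DESeq2, 79 with limma and 60 with converted Ts, and of the 156 below 6, 98, 155 and 57. The 156 below became 6 centred on the median gene, 840 in DESeq2, 932 in limma, 1 in the quasi-binomial model, 102 with converted Ts, 394 among genes averaging at least 200 reads, 98 without replicates 2 and 3 together, and 62 to 196 with 1 library left out. Genes without T>C, 1306 in all, numbered 42 at an average of at least 200 reads, 3669 without the filter, 2281 without replicates 2 and 3, and 1322 to 1920 with 1 library left out. The mean T>C share of 3.16% was 1.68% for the median gene, 0.139% in converted Ts, and 2.69 to 3.34% with 1 library left out. Of 89 called genes followed, 42 kept their call without each library in turn. Centred on the median gene, log2 odds ratios changed sign for rps-23 (0.448), rps-3 (0.177), rpl-1 (0.184) and col-71 (0.148). With converted Ts they changed sign for rps-3 (0.0772), cel-mir-354 (-0.587), asp-1 (-0.185), F59A3.8 (-4.22), flp-8 (-0.127), hsp-1 (-0.934), ndk-1 (-0.897) and hsp-60 (-0.410). The cause was not tested. Of the 86 and 156 genes, 84 and 150 lay on the same side in all 3 hypodermal libraries, and 84 to 86 and 150 to 153 with 1 of these left out. No paired analysis was possible because no test compares the strains. Leaving out replicates 2 and 3 for the shares and leaving out hypodermal libraries were chosen after seeing the data.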
